A study of Homo sapiens with 15 samples.

Results

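The genes described here carry out glycolysis and gluconeogenesis. They are 37 of the 30992 genes on the arrays, chosen by name along the pathway, from glucose uptake to lactate export and to the entry of pyruvate into mitochondria. They were read by 57 probes, with 1 probe for 21 of the genes and several probes for the other 16. Expression was measured in MDA-MB-231 cells, a human triple-negative breast cancer line, on 15 whole-genome arrays that each compared a Cy5-labelled treated sample with a Cy3-labelled control. The shCtBP2 arrays held cells in which CtBP2, a transcriptional co-repressor that senses NADH, was silenced by a stably expressed short hairpin RNA. The HIPP and P4 arrays held cells exposed for 24 h to small molecules made to inhibit CtBP2. Each treatment had 5 arrays, which the sample labels give as biological replicates, and the control on all of them is labelled as untreated MDA-MB-231 cells. For shCtBP2 the methods of the study name scrambled-control cells instead. If the label holds, an effect of carrying a hairpin construct cannot be told apart from the knockdown on these arrays. The treated sample carried the same dye on every array, and a dye effect of a gene cannot be told apart from a treatment effect. Whether several arrays shared a control extract was not given in the sources used here.

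Glycolysis splits glucose into pyruvate, and in most tumour cells lactate dehydrogenase turns much of that pyruvate into lactate, which regenerates NAD+ from NADH. Phosphofructokinase, hexokinase and pyruvate kinase catalyse the steps that are irreversible in the cell. Gluconeogenesis bypasses them with pyruvate carboxylase and phosphoenolpyruvate carboxykinase, fructose-1,6-bisphosphatase and glucose-6-phosphatase, and pyruvate dehydrogenase leads pyruvate into the tricarboxylic acid cycle.

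Many glycolytic promoters hold the letters ACGTG or GCGTG, the core of the hypoxia response element. The promoters of 4 genes that hold them are shown as examples. Each is the 250 bases before the start of the gene, from RefSeq on GRCh38.p14, written 5′ to 3′ on the strand of the gene. PGK1 lies at chrX:78103998-78104247 on the plus strand, ENO1 at chr1:8878687-8878936 on the minus strand, LDHA at chr11:18394313-18394562 on the plus strand and HK2 at chr2:74833877-74834126 on the plus strand. Capitals mark ACGTG or GCGTG on either strand.
PGK1: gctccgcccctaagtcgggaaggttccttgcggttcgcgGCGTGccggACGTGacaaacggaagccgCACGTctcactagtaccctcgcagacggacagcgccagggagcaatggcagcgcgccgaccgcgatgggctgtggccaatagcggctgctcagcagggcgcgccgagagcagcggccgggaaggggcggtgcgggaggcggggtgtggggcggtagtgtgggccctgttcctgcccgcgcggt
ENO1: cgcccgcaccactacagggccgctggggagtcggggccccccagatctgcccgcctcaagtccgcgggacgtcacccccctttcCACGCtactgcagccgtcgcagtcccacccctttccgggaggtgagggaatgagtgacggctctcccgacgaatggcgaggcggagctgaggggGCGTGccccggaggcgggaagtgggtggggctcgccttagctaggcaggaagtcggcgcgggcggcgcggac
LDHA: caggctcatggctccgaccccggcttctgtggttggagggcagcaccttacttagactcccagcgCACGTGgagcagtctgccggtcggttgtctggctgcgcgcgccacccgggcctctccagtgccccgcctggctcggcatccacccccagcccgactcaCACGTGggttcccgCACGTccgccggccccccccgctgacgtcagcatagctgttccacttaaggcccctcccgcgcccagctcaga
HK2: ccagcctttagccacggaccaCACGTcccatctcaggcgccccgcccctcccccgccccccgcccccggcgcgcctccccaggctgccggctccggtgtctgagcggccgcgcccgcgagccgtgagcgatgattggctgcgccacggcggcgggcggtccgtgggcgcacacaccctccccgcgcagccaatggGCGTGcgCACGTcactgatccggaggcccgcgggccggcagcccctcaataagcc
The LDHA window held ACGTG 5 times over both strands. The E-box CACGTG was present 2 times in it, and each copy reads ACGTG on both strands. The PGK1 and HK2 windows each held ACGTG 2 times and GCGTG once, and the ENO1 window held GCGTG 2 times and no ACGTG. Promoters of this length were matched for 33 of the genes, and the other 4 were SLC2A3, PFKFB2, SLC16A1 and PCK1. ACGTG was found in 12 of the 33 windows (36.4%), against 18.7% of all 27305 promoters of the same length. GCGTG was found in 13 (39.4%), against 31.9% of all. CACGTG, which contains ACGTG, was found in 5 (15.2%), against 6.49%. TGATGNAA, the core of the amino acid response element, was found in 1 (3.03%, HK1), against 3.19%. ACGTG was present in the windows of 5 of the 16 genes that fell with HIPP and of 3 of the 10 that rose, and of 4 of the 12 that fell and 2 of the 8 matched genes that rose with P4. GCGTG was present in 5 of the 16 that fell and 6 of the 10 that rose with HIPP, and in 5 of the 12 and 6 of the 8 with P4. These matches describe letters in a window and carry no statement about binding.

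The values below are log2 ratios of treated over control as measured, so that a negative value stands for a lower level in the treated cells. Each is the mean of 5 arrays with its SD, and values listed for single arrays run from replicate 1 to replicate 5. A gene is said to have risen or fallen where limma, fitted to all genes and all 15 arrays, gave a Benjamini-Hochberg adjusted p under 0.05, and every adjusted p below comes from that fit. It is called differentially expressed where the change also reached the fold threshold in the methods of the study, which was 1.5 for shCtBP2, 2.5 for HIPP and 1.8 for P4. Genes among the 11% with the lowest interquartile range over the 10 channel signals of a treatment were not tested in it, as in the methods. The fit shares 1 estimate of the spread of a gene over all 15 arrays, so that the p-values do not rest on the SD of a single treatment. With only the arrays compared in the fit, 7 of the 7 calls of shCtBP2, 25 of the 26 of HIPP and 14 of the 21 of P4 were kept. In bulk RNA, fewer cells with a transcript and less transcript per cell cannot be told apart.

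CTBP2, the target of the hairpin, had log2 ratios of -0.36, -0.35, -0.59, -0.44 and -0.29 in shCtBP2 cells (mean -0.41 ± 0.11), lower than the control on 5 of 5 arrays but with an adjusted p of 0.0595. It passed under 7 of the alternatives run, and its values are given with the closing limits. With HIPP it rose by 0.57 ± 0.36 (adjusted p = 0.00256), and with P4 it stood at 0.17 ± 0.35 (adjusted p = 0.344). The markers VIM, CD44, EGFR, SPARC and AXL were well above background on all arrays in both channels. PGR and CDH1, which this line lacks, were well above background on 0 arrays, whereas ESR1 was so on 2 to 5 of the 5 arrays of a treatment. Of the markers of other cell types, PTPRC and ALB were well above background on at most 1 of 5 arrays of a treatment, CD3E on 3 to 5 and the endothelial marker PECAM1 on 4 or 5. PECAM1 fell with HIPP (-1.95 ± 0.26, adjusted p = 6.54e-08) and with P4 (-0.74 ± 0.40, adjusted p = 0.00132), and its part in the results was not tested. Between 62.9% and 80.2% of genes were well above background in a channel, and no gene spot was saturated. Arrays of the same treatment correlated over all genes with r between 0.012 and 0.755.

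In shCtBP2 cells 7 of the 25 glycolysis and gluconeogenesis genes tested passed, 1 higher and 6 lower, which is 28.0% of them beside 13.5% of all 27582 genes tested (6.59% higher and 6.95% lower). PFKFB4 rose, and PFKFB2, FBP1, GAPDH, ENO1, PKLR and LDHB fell. Of the other genes 18 were tested and did not pass, and 12 were not tested. With HIPP 26 of 34 passed, 10 higher and 16 lower, which is 76.5% of them beside 48.7% of all genes tested (24.9% higher and 23.9% lower). With P4 21 of 31 passed, 9 higher and 12 lower, which is 67.7% beside 31.9% (17.1% higher and 14.8% lower). All genes tested include dim ones. With only genes well above background on 3 arrays or more, 3807 of 17931, 12348 of 20627 and 8403 of 19247 passed in the 3 treatments. These shares are larger than those of all genes tested, and the same 7, 26 and 21 of the 37 genes passed. Differential expression was called for 2 of the genes in shCtBP2 cells (FBP1 and PKLR, both lower), for 1 with HIPP (PGAM2, higher) and for 5 with P4 (PGAM2, PDK4 and PCK2 higher, FBP1 and ENO1 lower). Over all genes tested, 6.57%, 7.05% and 8.46% were differentially expressed in the 3 treatments. By direction these were 3.34% higher and 3.23% lower for shCtBP2, 3.43% and 3.61% for HIPP, and 4.29% and 4.17% for P4. The median of the log2 ratio over the 37 genes was -0.017 for shCtBP2, -0.042 for HIPP and 0.087 for P4, beside 0.038, 0.081 and 0.11 over all genes tested. The median of its absolute size was 0.19, 0.64 and 0.53, beside 0.22, 0.45 and 0.35. The median absolute change of the 37 genes was thus larger than that of all genes tested with HIPP and with P4. By direction, 4.0% of the genes tested were higher and 24.0% lower in shCtBP2 cells, 29.4% and 47.1% with HIPP, and 29.0% and 38.7% with P4. The plot of means in pathway order shows steps in both directions, with TPI1, PGK1, PGAM1, ENO1 and LDHA below 0 with HIPP and P4.

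**Figure D1:**
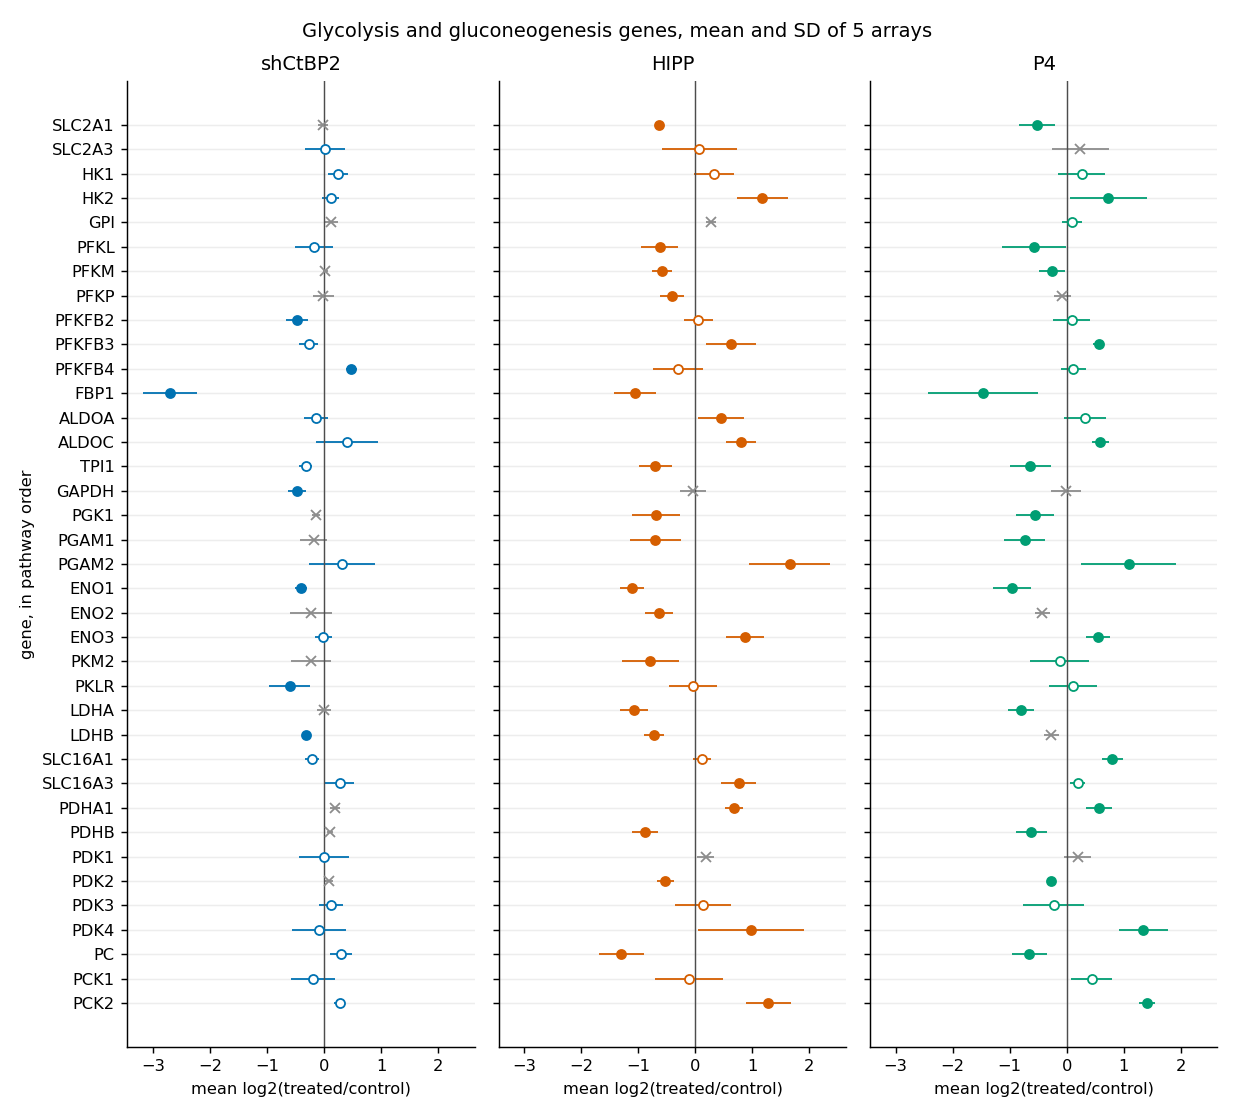
Mean log2 ratio of treated over control (x axis) of the 37 genes in pathway order (y axis) for the shCtBP2, HIPP and P4 arrays, with lines for the SD of 5 arrays. Filled circles passed the adjusted threshold (7, 26 and 21 genes), open circles were tested and did not pass, and grey crosses were not tested. FBP1 in shCtBP2 cells is plotted at -2.70, where its treated channel was well above background on 0 of 5 arrays.

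The arrays were spread over 4 slides, and no slide held all 3 treatments. shCtBP2 shared slide 3 with HIPP, and HIPP shared slide 2 with 1 P4 array. The other 4 of the 5 P4 arrays were alone on slide 1, which was scanned on a different day from all other arrays. Every gene that passed kept its sign on both slides of its treatment (7 of 7, 26 of 26 and 21 of 21), and 7, 24 and 19 of them had the same sign on all 5 arrays. These genes were chosen by the mean of the same arrays, so that like signs were largely fixed in advance and show nothing about slides. With the slide as a fixed block in the fit, 4, 25 and 8 genes passed. This kept 3 of the 7 calls of shCtBP2, 25 of the 26 of HIPP and 8 of the 21 of P4. Leaving out single shCtBP2 arrays left 3 to 5 genes, with 3 where any of replicates 1 to 4 was left out.

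Glucose enters through SLC2A1 (GLUT1) and SLC2A3 (GLUT3). SLC2A1 fell with both inhibitors and stayed near 0 in shCtBP2 cells. Its log2 ratios with HIPP were -0.67, -0.56, -0.65, -0.75 and -0.58 (mean -0.64 ± 0.075, 64.1% of control, adjusted p = 8.97e-05). With P4 they were -0.089, -0.50, -0.86, -0.81 and -0.37 (mean -0.53 ± 0.32, adjusted p = 0.00122), and in shCtBP2 cells 0.0024, 0.12, -0.086, -0.10 and -0.021 (mean -0.017 ± 0.086, not tested). All 5 HIPP values lay below all shCtBP2 values, whereas replicate 1 of P4 fell among them. The P4 call was lost with the slide as a fixed block (-0.47). SLC2A3 stood at 0.017 ± 0.35, 0.067 ± 0.66 and 0.24 ± 0.50 in the 3 treatments and passed in none, and its probes pointed in opposite directions in each of them.

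Hexokinase traps glucose in the cell as glucose 6-phosphate. HK2, the form induced in many tumours, rose with HIPP to 226% of control, with log2 ratios of 0.71, 1.48, 0.85, 1.8 and 1.05 (mean 1.18 ± 0.45, adjusted p = 0.000224). With P4 the values were 1.66, -0.030, 0.18, 0.80 and 1.03 (mean 0.73 ± 0.68, adjusted p = 0.0135), and in shCtBP2 cells 0.0076, 0.12, -0.081, 0.26 and 0.27 (mean 0.12 ± 0.15, adjusted p = 0.768). The HIPP and shCtBP2 values did not overlap, and the P4 values overlapped both. The 2 HK2 probes gave unequal changes. The probe at chr2:75029933-75029992 (hg17, the build of the array annotation) stood at 2.01 ± 0.56 with HIPP, and the one at chr2:75031986-75032045, the brighter of them, at 0.34 ± 0.35. With the brighter probe alone the HIPP call was lost, and the P4 call was lost without replicate 1 (0.50) or replicate 5 (0.65) and with the slide as a fixed block (1.16). HK1, the widely expressed form, stood at 0.25 ± 0.18, 0.33 ± 0.36 and 0.26 ± 0.41 and passed in no treatment. Of its 2 probes 1 was well above background on 0 arrays. The other HK1 probe stood at 0.16 ± 0.074, 0.13 ± 0.17 and 0.034 ± 0.17. GPI, which makes fructose 6-phosphate, stood at 0.12 ± 0.12, 0.28 ± 0.085 and 0.089 ± 0.18, and was tested with P4 alone, where it did not pass (adjusted p = 0.409).

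Phosphofructokinase commits sugar to glycolysis, and its 3 subunit genes fell together with HIPP. PFKL stood at -0.63 ± 0.32 (adjusted p = 0.00925), PFKM at -0.58 ± 0.17 (adjusted p = 9.41e-05) and PFKP at -0.41 ± 0.21 (adjusted p = 0.00261). The PFKP values with HIPP were -0.56, -0.58, -0.41, -0.062 and -0.43, with replicate 4 close to 0. With P4 they were -0.19, -0.28, 0.062, 0.084 and -0.055 (mean -0.074 ± 0.16, not tested), and in shCtBP2 cells -0.24, -0.063, -0.12, 0.12 and 0.22 (mean -0.015 ± 0.18, not tested), so that PFKP lay around 0 in both. PFKL and PFKM also fell with P4 (-0.57 ± 0.56 and -0.25 ± 0.23, adjusted p = 0.0255 and 0.0446). Both of those calls were lost with the slide as a fixed block (-0.32 and -0.14). The PFKL call was lost without replicate 2 or 5 of P4 (-0.56 for each), and the PFKM call without any of replicates 2 to 5 (-0.26 to -0.18). With the slide as a fixed block the PFKL call with HIPP was lost too (-0.45).

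The PFKFB enzymes make and remove fructose 2,6-bisphosphate, the main activator of phosphofructokinase. PFKFB3, whose product mostly makes it, rose with both inhibitors. Its values with HIPP were 0.80, 0.94, 0.97, -0.074 and 0.46 (mean 0.62 ± 0.44, adjusted p = 0.000896) and with P4 0.56, 0.68, 0.58, 0.58 and 0.42 (mean 0.56 ± 0.093, adjusted p = 0.00378). In shCtBP2 cells they were -0.16, -0.24, -0.17, -0.23 and -0.55 (mean -0.27 ± 0.16, adjusted p = 0.17), below every value with either inhibitor. The 4 PFKFB3 probes differed, with means from -0.073 to 1.32 with HIPP and from 0.087 to 1.15 with P4. The brightest of them, at chr10:6317068-6317127 (hg17), lay near 0 in all treatments, at 0.092 for shCtBP2, -0.073 for HIPP and 0.087 for P4, so that with it alone both calls were lost and the sign turned for shCtBP2 and for HIPP. The P4 call was also lost with the slide as a fixed block (0.083). PFKFB2 fell in shCtBP2 cells (-0.48 ± 0.19, adjusted p = 0.0172) and stood at 0.052 ± 0.26 with HIPP and 0.087 ± 0.32 with P4. PFKFB4 rose in shCtBP2 cells (0.48 ± 0.10, adjusted p = 0.0248) and stood at -0.31 ± 0.43 and 0.11 ± 0.22 with the inhibitors. The shCtBP2 call of PFKFB2 was lost without replicate 1 (-0.43) or 2 (-0.42), with normexp correction and loess (-0.15) and with the brightest probe (-0.27). That of PFKFB4 was lost without any of replicates 2 to 5 (0.46 to 0.50) and with the slide as a fixed block (0.26).

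FBP1, fructose-1,6-bisphosphatase, reverses the phosphofructokinase step in gluconeogenesis and fell in all 3 treatments. In shCtBP2 cells the log2 ratios were -3.16, -2.35, -2.09, -3.12 and -2.78 (mean -2.70 ± 0.47, adjusted p = 1.91e-05). With HIPP they were -0.59, -1.56, -1.02, -0.88 and -1.28 (mean -1.06 ± 0.37, adjusted p = 0.00453) and with P4 -1.22, -2.19, -0.38, -2.71 and -0.87 (mean -1.47 ± 0.96, adjusted p = 0.00100). All 15 values were below 0. The signal was dim, so that their sizes are not ordered between treatments: the control channel was well above background on 5 of 5 arrays of each treatment, but the treated channel on 0, 1 and 1. The size of the fall in shCtBP2 cells is therefore a bound, at least 1.21-fold lower after normexp correction, loess and scaling between arrays, where it passed as well (adjusted p = 0.00828). With normexp correction and loess the means were -0.27, -0.15 and -0.25, which is under the fold threshold in shCtBP2 cells and with P4, and with HIPP the call was lost. With P4 the call was also lost with the slide as a fixed block (-1.05).

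**Figure D2:**
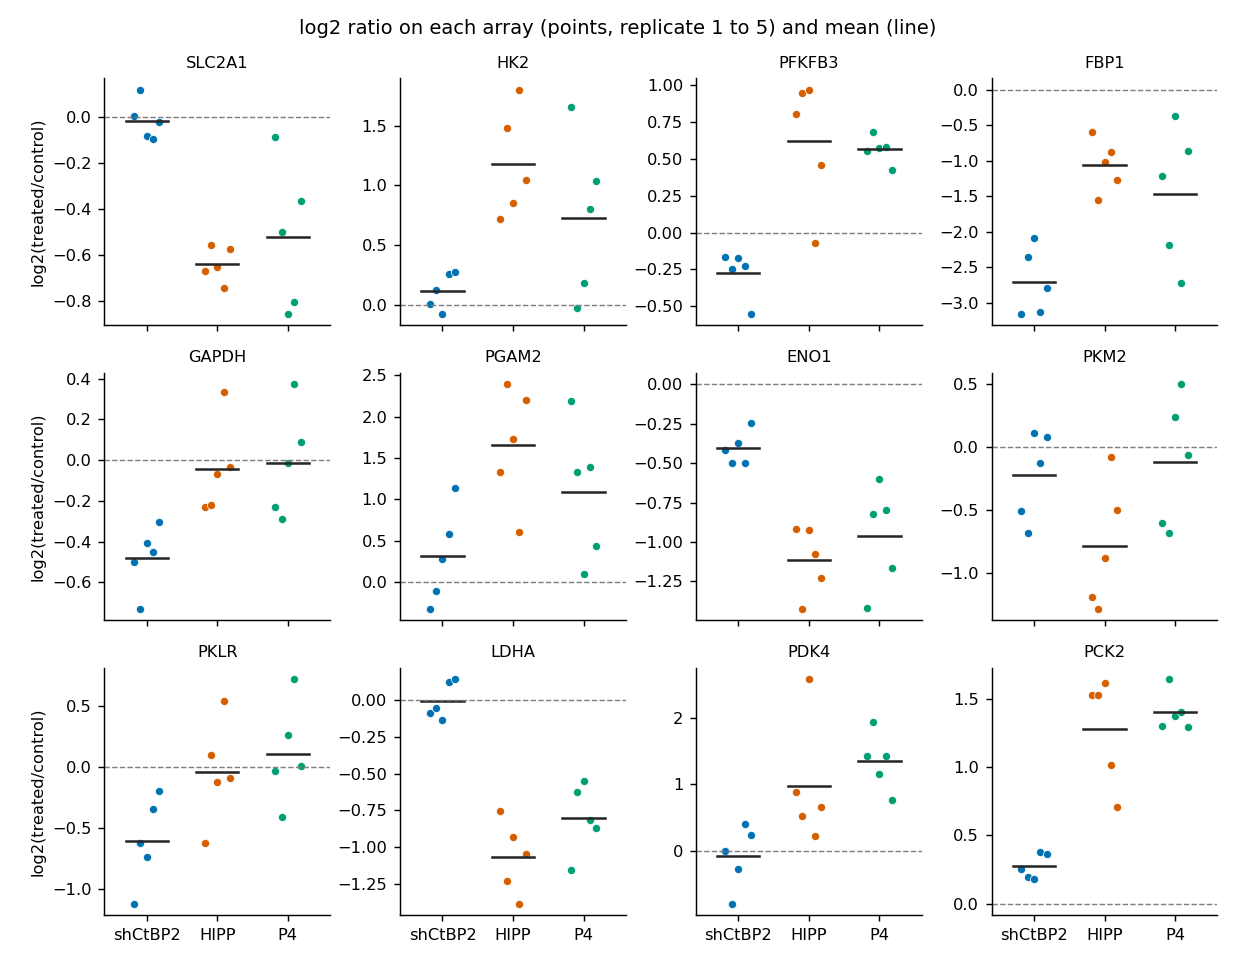
Log2 ratio of treated over control (y axis, its own scale in each panel) on each array (points, in replicate order from left to right) for 12 of the genes for each treatment, with a line for the mean of 5 arrays. LDHA and SLC2A1 lie around 0 in shCtBP2 cells and below 0 on every array with either inhibitor, PCK2 is above 0 on all 15 arrays, and FBP1 is below 0 on all 15.

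Aldolase cuts the sugar bisphosphate. ALDOC, the aldolase of brain, rose with HIPP (0.81 ± 0.26, adjusted p = 0.000635) and with P4 (0.59 ± 0.15, adjusted p = 0.0107), on 5 of 5 arrays each, and stood at 0.39 ± 0.54 in shCtBP2 cells (adjusted p = 0.113). ALDOA, the form of muscle and most tumours, rose with HIPP (0.45 ± 0.41, adjusted p = 0.0222), but its probes stood at 0.92 and -0.021, and with the brightest probe alone the sign turned. It stood at -0.15 ± 0.21 in shCtBP2 cells and 0.32 ± 0.36 with P4. TPI1, which interconverts the triose phosphates, fell with HIPP (-0.71 ± 0.29, adjusted p = 0.000311) and P4 (-0.64 ± 0.36, adjusted p = 0.00161), on 5 of 5 arrays each. In shCtBP2 cells it stood at -0.32 ± 0.11, lower on 5 of 5 arrays, and did not pass (adjusted p = 0.107). The P4 call of TPI1 was lost with the slide as a fixed block (-0.78).

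GAPDH, the enzyme that reduces NAD+ to NADH in glycolysis and a common reference gene, fell in shCtBP2 cells. Its values there were -0.50, -0.73, -0.41, -0.45 and -0.30 (mean -0.48 ± 0.16, 71.8% of control, adjusted p = 0.00913). With HIPP they were -0.23, -0.22, -0.066, 0.34 and -0.032 (mean -0.042 ± 0.23) and with P4 -0.23, -0.29, -0.015, 0.37 and 0.090 (mean -0.014 ± 0.27), with values on both sides of 0, and in both it was among the genes not tested. Every shCtBP2 value lay below every value with an inhibitor. Tested directly, GAPDH was higher by 0.44 ± 0.15 (SE) with HIPP than in shCtBP2 cells (adjusted p = 0.0461). The P4 difference, 0.46 ± 0.15, did not pass (adjusted p = 0.0597). The HIPP difference was lost without any of replicates 1 to 4 of shCtBP2 or 3 to 5 of HIPP. From mean signals without background correction the shCtBP2 call was lost (-0.13, beside a median of all genes of -0.20 there).

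PGK1, which makes the first ATP of the pathway, fell with HIPP (-0.69 ± 0.42, adjusted p = 0.000852) and P4 (-0.55 ± 0.34, adjusted p = 0.00828) and stood at -0.13 ± 0.071 in shCtBP2 cells (not tested). The P4 call of PGK1 was lost with background-subtracted signals (-0.46), from mean signals (-0.52), and with only the arrays compared and by the methods' test (-0.55 in each). Its 3 probes, all on chromosome X, did not move together. The probes at chrX:77184552-77184856 and chrX:77187607-77187666 (hg17) stood at -1.25 ± 0.85 and -0.87 ± 0.62 with HIPP and at -1.22 ± 0.85 and -0.78 ± 0.43 with P4, whereas the one at chrX:77187947-77188006 stood at 0.038 ± 0.21 and 0.34 ± 0.29. PGAM1, the widely expressed phosphoglycerate mutase, fell with HIPP (-0.70 ± 0.45, adjusted p = 0.00179) and P4 (-0.74 ± 0.36, adjusted p = 0.00265), on 5 of 5 arrays each, and the P4 call was lost with the slide as a fixed block (-0.88).

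PGAM2, the muscle form of the mutase, went the other way. With HIPP it rose to 314% of control, with log2 ratios of 1.34, 2.39, 1.73, 0.60 and 2.21 (mean 1.65 ± 0.72, adjusted p = 0.000315), and with P4 the values were 2.19, 1.33, 0.10, 1.4 and 0.43 (mean 1.09 ± 0.83, adjusted p = 0.0119). In shCtBP2 cells they were -0.32, -0.11, 0.28, 0.58 and 1.14 (mean 0.31 ± 0.58, adjusted p = 0.542). The shCtBP2 values overlapped both, and the P4 values ran from near 0 to above 2. The single PGAM2 probe was dim, well above background on 4 and 2 of 5 arrays in the treated channel with HIPP and P4 and on 2 and 1 in the control channel. With normexp correction and loess the means were 0.19 and 0.093, and from mean signals without correction -0.043 and -0.13, beside medians of all genes of -0.40 and -0.25 there. The differential expression call was lost in both treatments under each. With P4 it was also lost with the slide as a fixed block (0.65), with background-subtracted signals (1.16), with only the arrays compared and by the methods' test adjusted over all genes (1.09 in each) and, on the fold threshold, without replicate 1 (0.82).

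The enolases convert 2-phosphoglycerate to phosphoenolpyruvate. ENO1, the form of most tissues and of tumours, fell in all 3 treatments. Its values in shCtBP2 cells were -0.42, -0.50, -0.37, -0.50 and -0.24 (mean -0.41 ± 0.11, adjusted p = 0.0265). With HIPP they were -0.92, -1.43, -0.92, -1.07 and -1.23 (mean -1.11 ± 0.22, 46.2% of control, adjusted p = 1.51e-06) and with P4 -1.42, -0.83, -0.60, -0.80 and -1.17 (mean -0.96 ± 0.33, 51.4% of control, adjusted p = 2.86e-05). All 15 values were below 0, and every value with an inhibitor lay below every shCtBP2 value. With P4 the mean without replicate 1 (-0.85) was just under the fold threshold. It was also under it with background-subtracted signals (-0.71) and from mean signals (-0.77). The ENO1 probes moved together, at -1.08 and -1.14 with HIPP and at -0.88 and -1.04 with P4. In shCtBP2 cells the call was lost without any of replicates 1 to 4 (-0.41 to -0.38) and with the slide as a fixed block (-0.34). ENO2, the neuronal form, fell with HIPP (-0.64 ± 0.25, adjusted p = 0.000585). With P4 all 5 arrays gave ENO2 values below 0 (-0.43 ± 0.13, not tested). ENO3, the muscle form, rose with HIPP (0.87 ± 0.33, adjusted p = 2.17e-05) and P4 (0.55 ± 0.21, adjusted p = 0.00244), so that with HIPP the muscle mutase and enolase rose while the common forms fell.

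**Figure D3:**
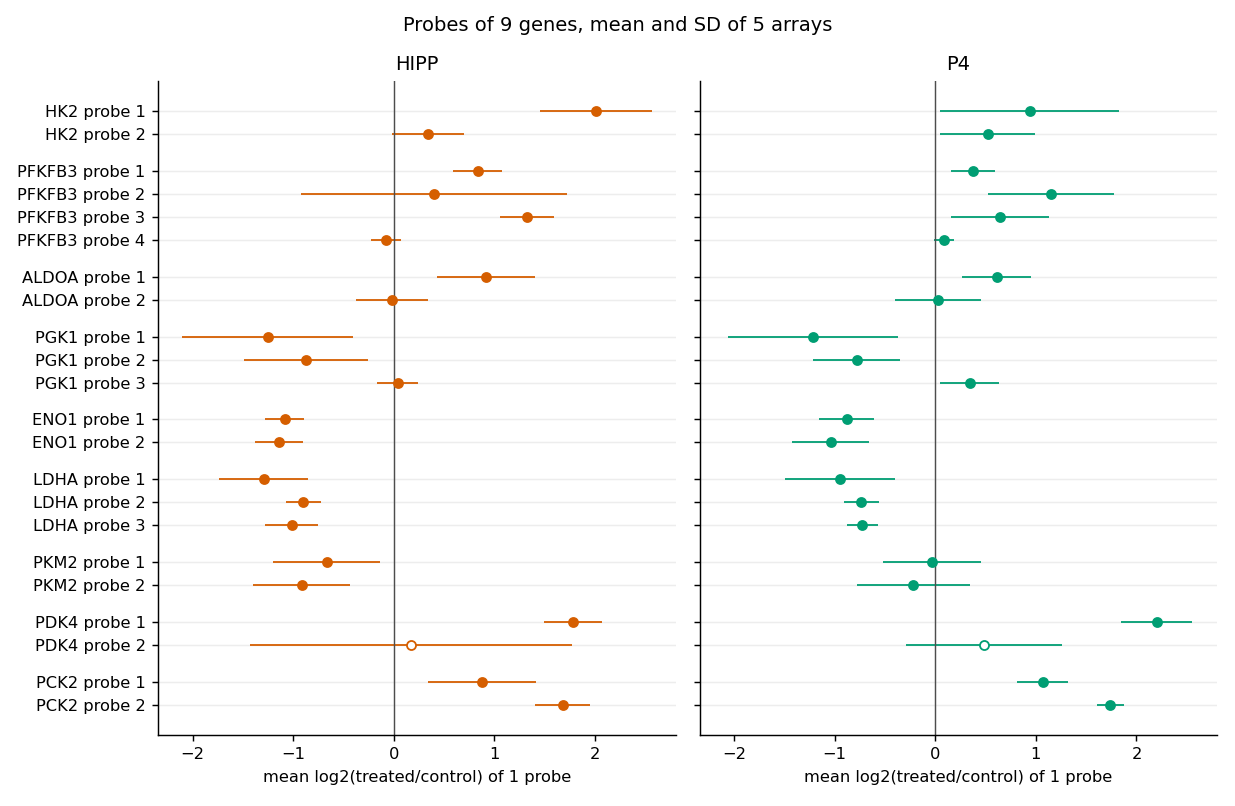
Mean log2 ratio of treated over control (x axis) of each probe of 9 genes (y axis) with HIPP and with P4, with lines for the SD of 5 arrays. Open circles mark a probe that was well above background on at most 1 of 5 arrays in either channel. The probes of ENO1, LDHA and PKM2 lie close together, whereas HK2 with HIPP ranges from 0.34 to 2.01 and PGK1 from -1.25 to 0.038.

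Pyruvate kinase closes the pathway. PKM2, the name the array gives to the PKM gene, fell with HIPP, with values of -1.20, -1.29, -0.89, -0.082 and -0.51 (mean -0.79 ± 0.50, 57.8% of control, adjusted p = 0.00383). With P4 they were -0.61, -0.68, 0.24, 0.49 and -0.070 (mean -0.13 ± 0.51, adjusted p = 0.643) and in shCtBP2 cells -0.51, -0.69, 0.11, -0.13 and 0.079 (mean -0.23 ± 0.36, not tested), with values on both sides of 0 and overlapping those with HIPP. Its 2 probes stood at -0.67 and -0.92 with HIPP, and which PKM isoforms they read was not analysed here. PKLR, the liver and red cell form, fell in shCtBP2 cells, with values of -1.12, -0.62, -0.73, -0.34 and -0.20 (mean -0.60 ± 0.36, adjusted p = 0.0312). With HIPP they were -0.62, 0.10, -0.12, 0.54 and -0.092 (mean -0.039 ± 0.42, adjusted p = 0.868) and with P4 -0.032, -0.41, 0.26, 0.72 and 0.0046 (mean 0.11 ± 0.42, adjusted p = 0.65), around 0 in both. The PKLR signal was dim in shCtBP2 cells, well above background on 1 of 5 arrays in the treated and 3 of 5 in the control channel. Its mean there lay just past the fold threshold of 0.585 on the log2 scale, and the call was lost without any of replicates 1 to 4 (-0.67 to -0.47), with normexp correction and loess (-0.067) and with the slide as a fixed block (-0.95).

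LDHA, the lactate dehydrogenase subunit favoured by tumours, fell with both inhibitors on every array. Its values with HIPP were -0.76, -1.23, -0.93, -1.38 and -1.04 (mean -1.07 ± 0.25, 47.7% of control, adjusted p = 1.06e-06) and with P4 -1.15, -0.63, -0.55, -0.82 and -0.87 (mean -0.80 ± 0.24, 57.3% of control, adjusted p = 6.98e-05). In shCtBP2 cells they were -0.091, -0.055, -0.14, 0.12 and 0.14 (mean -0.0039 ± 0.13, not tested). No value with an inhibitor overlapped the shCtBP2 values, which lay on both sides of 0. Its 3 probes stood between -1.29 and -0.90 with HIPP and between -0.95 and -0.72 with P4. Neither mean reached the fold threshold of its treatment, and with P4 (threshold 0.848 on the log2 scale) LDHA was just under it. LDHB, the subunit of oxidative tissue, fell in shCtBP2 cells (-0.31 ± 0.080, adjusted p = 0.021) and with HIPP (-0.73 ± 0.18, adjusted p = 4.1e-06). With P4 all 5 arrays gave LDHB values below 0 (-0.27 ± 0.13, not tested). The shCtBP2 call of LDHB was lost without replicate 1, 3, 4 or 5 (-0.33 to -0.28) and with the slide as a fixed block (-0.23), and its sign turned with background-subtracted, median-centred signals (0.031).

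Lactate leaves through the monocarboxylate transporters. SLC16A1 (MCT1) rose with P4 (0.80 ± 0.18, 175% of control, adjusted p = 1.49e-05), on 5 of 5 arrays, and stood at 0.12 ± 0.17 with HIPP (adjusted p = 0.28) and -0.22 ± 0.12 in shCtBP2 cells (adjusted p = 0.116). SLC16A3 (MCT4), the exporter of highly glycolytic cells, rose with HIPP (0.76 ± 0.31, 169% of control, adjusted p = 7.61e-05) and stood at 0.19 ± 0.14 with P4 (adjusted p = 0.207) and 0.27 ± 0.25 in shCtBP2 cells (adjusted p = 0.131). HIPP and P4 were not tested against each other, since their doses on the arrays were not given as matched.

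Pyruvate dehydrogenase turns pyruvate into acetyl-CoA, and the genes of the subunits of its first enzyme moved apart with both inhibitors. PDHA1, the catalytic alpha subunit, rose with HIPP (0.68 ± 0.15, adjusted p = 2.21e-05) and P4 (0.56 ± 0.22, adjusted p = 0.000351), whereas PDHB, the beta subunit, fell (-0.89 ± 0.23, adjusted p = 5.66e-06, and -0.62 ± 0.27, adjusted p = 0.000469). Each had the same sign on 5 of 5 arrays of each inhibitor. In shCtBP2 cells they stood at 0.19 ± 0.094 and 0.11 ± 0.052 and were not tested. The P4 call of PDHA1 was lost with the slide as a fixed block (0.58).

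Pyruvate dehydrogenase kinases switch the complex off. PDK1, a target of hypoxia signalling, passed in no treatment. Its values were -0.38, -0.033, -0.48, 0.50 and 0.36 in shCtBP2 cells (mean -0.0053 ± 0.44, adjusted p = 0.985), 0.31, 0.15, 0.23, -0.065 and 0.29 with HIPP (mean 0.18 ± 0.15, not tested) and -0.18, 0.44, 0.37, 0.11 and 0.21 with P4 (mean 0.19 ± 0.24, not tested). PDK2 fell with HIPP (-0.53 ± 0.15, adjusted p = 2.71e-05) and P4 (-0.28 ± 0.036, adjusted p = 0.00833), and the P4 call was lost with the slide as a fixed block (-0.34). PDK3 passed in no treatment (0.11 ± 0.21, 0.13 ± 0.49 and -0.23 ± 0.54). PDK4, the kinase of fasting, rose with P4 to 254% of control, with values of 1.43, 1.95, 1.16, 1.43 and 0.76 (mean 1.34 ± 0.43, adjusted p = 0.00184). With HIPP they were 0.89, 0.53, 2.58, 0.21 and 0.66 (mean 0.97 ± 0.93, adjusted p = 0.00788), where replicate 3 stood far above the others, and without it the mean was 0.57. In shCtBP2 cells they were -0.0018, -0.80, -0.27, 0.41 and 0.23 (mean -0.087 ± 0.47, adjusted p = 0.862), below every P4 value and partly overlapping those with HIPP. The brighter PDK4 probe, at chr7:94857958-94858017 (hg17), stood at 1.78 ± 0.28 with HIPP and 2.20 ± 0.35 with P4, and the other was well above background on at most 1 array of a treatment. With HIPP that dim PDK4 probe stood at 0.17 ± 1.6, so that the wide spread of the gene there lay mostly in it. With the slide as a fixed block the P4 call was lost (0.63).

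Of the genes that lead from pyruvate to phosphoenolpyruvate, PC and PCK2 moved in opposite directions with the inhibitors. PC, pyruvate carboxylase, fell with HIPP (-1.30 ± 0.39, 40.7% of control, adjusted p = 2.59e-06), just short of the fold threshold of 1.32 on the log2 scale, and with P4 (-0.65 ± 0.30, adjusted p = 0.00258). It stood at 0.30 ± 0.20 in shCtBP2 cells (adjusted p = 0.175), and its P4 call was lost with the slide as a fixed block (-0.43). PCK2, the mitochondrial phosphoenolpyruvate carboxykinase, rose with P4 to 265% of control, with values of 1.30, 1.64, 1.38, 1.41 and 1.29 (mean 1.4 ± 0.14, adjusted p = 1.65e-06). With HIPP they were 1.52, 1.53, 1.62, 1.01 and 0.71 (mean 1.28 ± 0.40, 243% of control, adjusted p = 6.19e-07), just short of the fold threshold. In shCtBP2 cells they were 0.25, 0.19, 0.18, 0.38 and 0.36 (mean 0.27 ± 0.093, adjusted p = 0.139). All 15 values were above 0, and the shCtBP2 values lay below all values with an inhibitor. Both PCK2 probes rose, to 0.88 and 1.68 with HIPP and 1.07 and 1.74 with P4, and the P4 call of differential expression held under every alternative run. PCK1, the cytosolic enzyme of liver and kidney, passed in no treatment (-0.19 ± 0.38, -0.11 ± 0.59 and 0.44 ± 0.36).

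**Figure D4:**
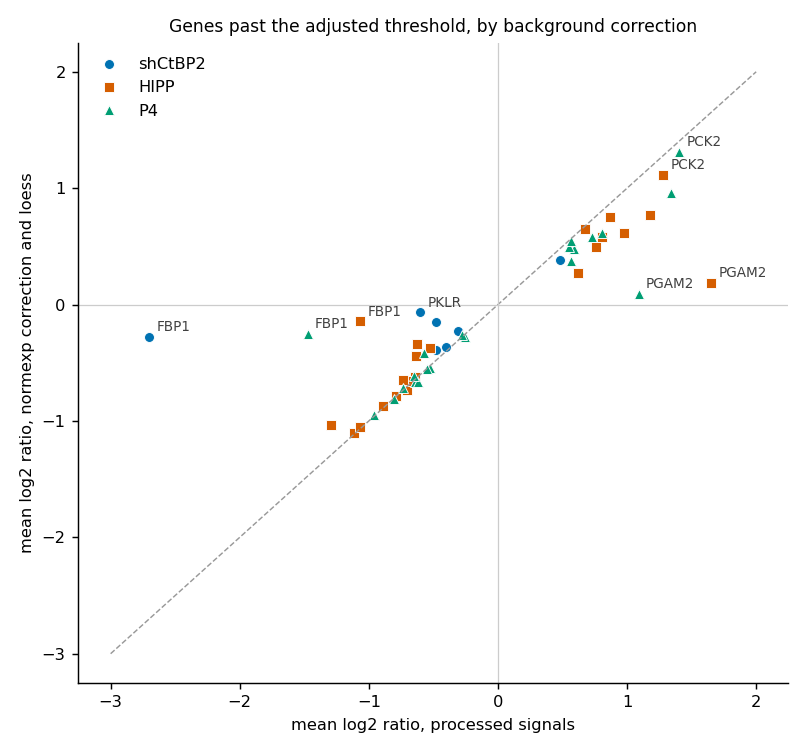
Mean log2 ratio of the genes that passed the adjusted threshold, from the processed signals (x axis) and after normexp correction and loess (y axis), with 1 point for each gene and treatment and a dashed line where both are equal. FBP1, PGAM2 and PKLR, which are dim, move towards 0 on the y axis (FBP1 in shCtBP2 cells from -2.70 to -0.27), whereas PCK2 keeps most of its size.

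Whether an inhibitor and the knockdown differed was tested in the same limma fit. HIPP and shCtBP2 differed for 22 of 36 genes tested, 11 higher and 11 lower with HIPP (61.1%, beside 27.4% of all genes tested, 12.8% higher and 14.6% lower). P4 and shCtBP2 differed for 13 of 35, 7 higher and 6 lower with P4 (37.1%, beside 12.9%, 6.44% higher and 6.44% lower). Both comparisons use the same shCtBP2 arrays. LDHA was lower by 1.06 ± 0.15 (SE) with HIPP than in shCtBP2 cells (adjusted p = 8.55e-05) and by 0.80 ± 0.15 with P4 (adjusted p = 0.00272). PC differed by -1.59 ± 0.20 with HIPP (adjusted p = 3.1e-05) and by -0.95 ± 0.20 with P4 (adjusted p = 0.00559), and PDHB by -1.0 ± 0.15 (adjusted p = 0.00013) and -0.73 ± 0.15 (adjusted p = 0.00441). Each of these genes thus stood lower on the inhibitor arrays. PCK2 was higher by 1.00 ± 0.17 with HIPP (adjusted p = 0.00039) and by 1.13 ± 0.17 with P4 (adjusted p = 0.000531). SLC16A1 was higher by 1.02 ± 0.12 with P4 (adjusted p = 0.000119), and its difference with HIPP, 0.33 ± 0.12, did not pass (adjusted p = 0.0582).

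In the upper part of the pathway SLC2A1 was lower with both inhibitors than in shCtBP2 cells (-0.62 ± 0.14, adjusted p = 0.00392, and -0.51 ± 0.14, adjusted p = 0.0287), and the P4 difference was lost without replicate 1, 2 or 5 of shCtBP2 or 3 or 4 of P4 (-0.51 to -0.42) and with only the arrays compared (-0.51). PFKFB3 was higher with both (0.89 ± 0.18, adjusted p = 0.00168, and 0.84 ± 0.18, adjusted p = 0.00694). PFKFB3 is open to its probes here too, since with the brightest probe alone the differences were -0.17 and -0.0053. HK2 was higher with HIPP than in shCtBP2 cells (1.06 ± 0.29, adjusted p = 0.0121) and did not pass with P4 (0.61 ± 0.29, adjusted p = 0.186). The HIPP difference of HK2 was lost with the brightest probe (0.28), from mean signals (0.27), with normexp correction and loess (0.68) and with the slide as a fixed block (1.36). FBP1 is among the genes counted above as higher with each inhibitor. Its shCtBP2 ratio is a bound, so that neither a size nor a direction of its difference is read from these values. Neither FBP1 difference passed with normexp correction and loess or with the slide as a fixed block, and the P4 difference was also lost without replicate 1, 2, 4 or 5 of shCtBP2 or 1, 3 or 5 of P4. ENO1 was lower by 0.71 ± 0.16 (adjusted p = 0.00381) and by 0.55 ± 0.16 (adjusted p = 0.0334). Both ENO1 differences were lost with the slide as a fixed block (-0.69 and -0.77), and the P4 difference also without any 1 shCtBP2 array or P4 replicate 1 or 5 (-0.58 to -0.44). None of the 37 genes had inhibitor and shCtBP2 means of opposite sign that each passed their own test. On slide 3, where 2 HIPP and 2 shCtBP2 arrays lay together, the means were -1.21 and -0.073 for LDHA, -1.28 and 0.14 for PC, 0.86 and 0.22 for PCK2 and -1.15 and -0.46 for ENO1, in the same order as over all arrays. The order on slide 3 was the reverse for SLC2A3, PFKL, ENO2, PKM2 and PDK3, whose differences over all arrays had not passed. PKM2 stood there at -0.29 with HIPP and -0.60 in shCtBP2 cells. P4 and shCtBP2 shared no slide, and with the slide as a fixed block 10 of the HIPP differences passed and 0 of the P4 differences. Without single arrays 15 to 23 and 7 to 14 differences passed, with 7 P4 differences where replicate 1, 2 or 5 of shCtBP2 was left out and 8 without its replicate 4 or without replicate 4 or 5 of P4.

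The rest of the pathway was counted over lists of other genes. Of 32 further genes of glycolysis and gluconeogenesis, 1 rose and 3 fell in shCtBP2 cells (12.5% of those tested passed), 4 rose and 6 fell with HIPP (35.7%) and 4 rose and 5 fell with P4 (31.0%), beside 13.5%, 48.7% and 31.9% of all genes tested. The genes counted as higher include PFKFB1 with HIPP, well above background on 0 of 5 arrays in both channels, and SLC2A2 with P4, so on 0 in the treated and 1 in the control channel, and no size is given for either. HKDC1, a hexokinase-like gene, rose with HIPP (2.48 ± 0.50, adjusted p = 4.28e-08) and P4 (2.39 ± 0.32, adjusted p = 3.89e-07), where its treated channel was well above background on 5 of 5 arrays and its control channel on 2. With normexp correction and loess HKDC1 stood at 0.41 and 0.51 and still passed. In shCtBP2 cells it was well above background on 0 arrays in either channel, so that no ratio is given. It is among the 3 genes counted as lower there, a call lost without any of replicates 1 to 4 and with the slide as a fixed block. SLC2A12, a glucose transporter, fell with HIPP (-1.45 ± 0.54, adjusted p = 6.11e-06) and P4 (-1.64 ± 0.27, adjusted p = 9.56e-06). Its treated channel was well above background on 0 arrays with HIPP, where the fall is at least 1.12-fold after the steps given for FBP1 (adjusted p = 0.00797 there). With P4 it was so on 1 array, and with normexp correction and loess the P4 mean of SLC2A12 was -0.31 and still passed.

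Of 12 genes of the pyruvate dehydrogenase complex and mitochondrial pyruvate entry, 2 rose and 0 fell in shCtBP2 cells, 1 rose and 5 fell with HIPP and 1 rose and 4 fell with P4. These are 28.6% of 7 tested, 54.5% of 11 and 55.6% of 9, beside 13.5%, 48.7% and 31.9% of all genes tested. PDP1, the phosphatase that switches pyruvate dehydrogenase on, rose in shCtBP2 cells (1.29 ± 0.32, adjusted p = 0.00298), and it fell with P4 (-0.69 ± 0.66, adjusted p = 0.0409). The P4 call of PDP1 was lost without replicate 3 (-0.68), 4 (-0.52) or 5 (-0.54) and with normexp correction and loess (-0.58). MPC2, a subunit of the mitochondrial pyruvate carrier, fell with HIPP (-0.97 ± 0.99, adjusted p = 0.0199), a call lost without replicate 2 (-0.92), 4 (-0.62) or 5 (-0.90). It fell with P4 too (-0.90 ± 0.87, adjusted p = 0.0419), a call lost without replicate 1 (-0.73), 4 (-0.72) or 5 (-0.77). Of 15 genes of the pentose phosphate pathway, 1 rose and 1 fell in shCtBP2 cells, which is 14.3% of 14 tested. With HIPP 2 rose and 7 fell (75% of 12), and with P4 2 rose and 3 fell (35.7% of 14). The shares of all genes tested were 13.5%, 48.7% and 31.9%. Of 24 genes of the tricarboxylic acid cycle and malic enzymes, 18 were tested in each treatment. In shCtBP2 cells 0 rose and 2 fell (11.1%), with HIPP 1 rose and 15 fell (88.9%) and with P4 2 rose and 11 fell (72.2%), beside 13.5%, 48.7% and 31.9% of all genes tested. IDH3G, a subunit of mitochondrial isocitrate dehydrogenase, fell with HIPP (-1.43 ± 0.49, adjusted p = 3.2e-06), as did ME3, a mitochondrial malic enzyme (-1.42 ± 0.41, adjusted p = 7.07e-07). Differential expression was called for 8 genes of this list with P4, 2 higher and 6 lower, of 18 tested, beside 8.46% of all genes tested (4.29% higher and 4.17% lower). With P4 IDH3G and ME3 stood at -0.42 ± 0.34 (adjusted p = 0.0525) and -0.76 ± 0.28 (adjusted p = 0.00069), and the ME3 call was lost with the slide as a fixed block (-0.44).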

How the data were processed

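RNA of treated and control MDA-MB-231 cells was hybridised to 15 two-colour Agilent arrays. Per the file headers, the authors used Agilent Feature Extraction 9.5 to correct background and dye differences, and they deposited intensity values per spot and a series table of the log10 ratio of Cy5 over Cy3. The software replaces very dim processed signals by surrogate values, which can set the size of a ratio near background. Probe positions are those of hg17, given by the scanner files. Where in a transcript a probe lies was not analysed here. Depth has no meaning for arrays, and the number of arrays limits the precision.

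The log2 ratio of Cy5 to Cy3 was computed from the processed signals, outlier and non-uniform spots were left out, spots of a probe were averaged, and probes of a gene were averaged. Symbols were updated through RefSeq; 14209 probes kept the name in the files. Genes needed 3 of 5 arrays, and the 11% with the lowest interquartile range in a treatment were not tested. Ratios were tested against 0, and against each other, with limma 3.58.1 in R 4.3.3, in 1 fit of 15 arrays with Benjamini-Hochberg adjustment over all genes at 0.05. The procedure was tested on simulated data. A channel was well above background by the flag of the scanner software.

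The members and gene lists (uptake to pyruvate entry, further glycolysis genes, pyruvate dehydrogenase, pentose phosphate, tricarboxylic acid cycle, cell markers) were chosen with earlier results of these data known. Values on every array are given for genes differentially expressed in a treatment and for SLC2A1, HK2, PFKP, PFKFB3, GAPDH, PKM2, LDHA and PDK1, and from each list at most the 2 largest changes among differentially expressed genes are named. Alternatives were normexp correction (offset 50) with loess, background-subtracted and mean signals, the deposited table, slide or replicate number as a block, only the arrays compared, the brightest probe, no range filter, a background filter, the methods' test, other fold thresholds and leaving out each array. Expression was not tested between HIPP and P4.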

Additional observations from a re-analysis of the deposited data

Results flagged for a closer look

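Of 111 sets of 5 arrays (37 genes in 3 treatments), 5 held a value whose gap to its nearest neighbour was more than 0.71 of the range, which is Dixon's 95% limit for 5 values, and chance gives about 1 in 20. SLC2A3 stood at -0.59 on replicate 3 of shCtBP2, with the nearest value at 0.032. PFKFB3 stood at -0.55 on replicate 5 of shCtBP2, with the nearest at -0.24. PFKFB4 stood at 0.44 on replicate 4 of HIPP, with the nearest at -0.39. PDK4 stood at 2.58 on replicate 3 of HIPP, with the nearest at 0.89. Its brighter probe had an SD of 0.28 with HIPP, and its dim probe 1.6. GPI stood at -0.22 on replicate 1 of P4, with the nearest at 0.11. No cause was tested.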

How the results depend on the processing

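Counts of genes that passed stayed within 1.5 times the value reported in every treatment with the deposited series table, the slide as a random block, only the arrays compared, the brightest probe, no range filter, a background filter, normexp correction with loess and background-subtracted signals. For the others the cause was not tested. In shCtBP2 cells 4 genes passed from mean signals without correction, 4 with the slide as a fixed block and 4 by the methods' test, where 7 had passed. With P4, 8, 8 and 7 passed, where 21 had. Of the genes that passed, normexp correction with loess kept 5 of 7, 21 of 26 and 20 of 21, and the methods' test 3, 18 and 7. Mean signals without correction moved the median of all genes to -0.20, -0.40 and -0.25, and of the genes that passed there 1.23%, 2.12% and 4.04% were higher, beside 48.7%, 51.0% and 53.5%, so that its values are relative to those medians.

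Differential expression was called for 2 genes in shCtBP2 cells, and for 0 with normexp correction and loess, 1 from mean signals, 4 with the slide as a fixed block, 1 with it as a random block and 1 by the methods' test, whether adjusted over all genes or over those past the fold threshold. With HIPP it was called for 1 gene, and for 0 with normexp correction and loess, 2 with background-subtracted signals, 7 from mean signals, 3 with the brightest probe and 22 at a fold threshold of 1.5. With P4 it was called for 5, and for 3, 3 and 1 with normexp correction, background-subtracted and mean signals, 3 by the methods' test adjusted over all genes (5 over those past the fold threshold) and 13 at a fold threshold of 1.5. HIPP and shCtBP2 differed for 22 genes, and for 6 from mean signals and 10 with the slide as a fixed block. P4 and shCtBP2 differed for 13, and for 0 under either.

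CTBP2 in shCtBP2 cells, at -0.41, passed with background-subtracted signals (-0.38), the series table (-0.41), the slide as a random block (-0.39), the replicate number as a block, only the arrays compared, the background filter and the methods' test (-0.41 in each).

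Leaving out each array in turn gave 3 to 5, 24 to 26 and 17 to 21 genes that passed for shCtBP2, HIPP and P4, 1 to 2, 1 to 3 and 4 to 7 differentially expressed, 15 to 23 and 7 to 14 that differed from shCtBP2 with HIPP and P4, and CTBP2 between -0.43 and -0.36. The HIPP count of differentially expressed genes was 2 without replicate 3, 3 without replicate 4 and 2 without replicate 5.

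The replicate numbers were not shown to pair the arrays: of 15 same-numbered pairs, whose correlations ran from -0.028 to 0.47, 13 were over 0.1, and 7 correlated best with their own number. With the number as a block 8, 27 and 22 genes passed, 26 and 16 differed from shCtBP2, and 2, 1 and 5 were differentially expressed.

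Signs turned for some genes under single alternatives. With the slide as a fixed block HK2 (-0.21), PFKFB3 (0.17) and PDK4 (0.36) turned in shCtBP2 cells, PKLR with HIPP (0.15), PKM2 with P4 (0.48) and the PFKFB3 difference of P4 from shCtBP2 (-0.085). With the brightest probe PFKFB3 (0.092) and PDK4 (0.24) turned in shCtBP2 cells, PFKFB3 (-0.073) and ALDOA (-0.021) with HIPP, and the PFKFB3 differences of HIPP (-0.17) and P4 (-0.0053). From mean signals without correction, which moved all genes down, PGAM2 (-0.23) and LDHB (0.065) turned in shCtBP2 cells, PFKFB3 (-0.089), ALDOA (-0.24) and PGAM2 (-0.043) with HIPP, PGAM2 (-0.13) and PKLR (-0.22) with P4, and the differences of HIPP from shCtBP2 for PFKFB2 (-0.11), ALDOA (-0.18), GAPDH (-0.31), SLC16A3 (-0.26) and PDHA1 (-0.28). Less the medians of all genes, those of PFKFB3, ALDOA and PGAM2 with HIPP, of PGAM2 and PKLR with P4 and of the PFKFB2 and ALDOA differences kept their sign (0.31, 0.16, 0.35, 0.12, 0.028, 0.087 and 0.018), and the other 5 did not. With background-subtracted signals LDHB (0.031) and PDK4 (0.25) turned in shCtBP2 cells and PKLR with HIPP (0.12), and with normexp correction and loess PDK1 (0.011) and PDK4 (0.095) in shCtBP2 cells and PKLR with HIPP (0.012). Without single arrays PDK1 ran from -0.13 to 0.11 and PDK4 from -0.21 to 0.091 in shCtBP2 cells, PKLR from -0.18 to 0.11 with HIPP and from -0.045 to 0.24 with P4, and PKM2 from -0.28 to 0.014 with P4.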
